A study of Mus musculus with 6 samples.

Results

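Transcripts of 10 secreted proteins of the TGF-beta family and its regulation were examined in mouse liver: growth differentiation factor 9 (Gdf9), Gdf2, the activin and inhibin beta subunits Inhba, Inhbb, Inhbc and Inhbe, the bone morphogenetic proteins Bmp2 and Bmp6, Tgfb1, and the activin-binding protein follistatin (Fst). The members were taken by gene name, 10 genes of 34832 distinct names on the array, and each had 1 probe, on 19 spots in all because the Tgfb1 probe is spotted 10 times. The list was selected on the same contrast of CBZ with DMSO that is described here. The members' differences, intervals and calls are therefore given as a description, and none is read as a test. RNA came from the whole liver, taken 2 h after an oral dose from mice of the inbred strain C57BL6/J. There were 3 mice given 250 mg/kg of a compound that the labels call CBZ and 3 mice given DMSO, a common solvent, and the labels name no allele or transgene in either group. Neither age nor sex is given in the labels. Each liver was hybridised to 1 array, read in a single colour, so that n = 3 per group throughout.

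Ligands of this family are made as precursors, cut by furin-like proteases and secreted as dimers. A dimer brings together type I and type II serine/threonine kinase receptors, which phosphorylate Smad proteins, and the Smads enter the nucleus with Smad4 to switch genes on or off. In the liver, hepatocytes are known to make Inhbc and Inhbe, endothelial cells make Bmp2 and Bmp6 that drive hepcidin, stellate cells make Gdf2, and Tgfb1 is the main signal for fibrosis. Gdf9 is best known from the oocyte, where it acts on the surrounding follicle cells.

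All 6 arrays lay on 1 slide and were read in 1 scan, and the 3 DMSO arrays and CBZ mouse 1 shared row 1 while CBZ mice 2 and 3 lay in row 2. On each array 42.6% to 45.8% of spots were clearly above background, and the 75th percentile of the signal lay between 158 and 191 intensity units. Values were compared as log2 of the background-subtracted signal minus that array's 75th percentile, called scaled log2 below. A probe was kept if the scanner software marked it as well above background in all 3 mice of either group, and 22352 probes passed. With 3 mice per group, precision is limited for every value given. All 8 hepatocyte markers were kept, led in signal by Alb and Cyp2e1, so the labelled tissue was borne out by its markers.

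The array carries each member as 60 bases. The first 30 bases of the probe are shown for Gdf9, whose groups lay farthest apart, and for Gdf2, the member that separated the groups in the other direction. For Inhbe, which also separated the groups, the last 30 bases are shown. Its gene neighbour Inhbc, which did not, is shown beside it by its first 30 bases, so the 2 stretches are of different ends. Sequences run 5′ to 3′ on the strand of the transcript. Capitals mark AATAAA, the canonical polyadenylation signal, where the printed stretch holds it.
Gdf9: acagatttgttagcataagtctcgagtaga
Gdf2: aatcagagccggaaggacttcaaaacatct
Inhbe: gtgacatacattttatattttcttAATAAA
Inhbc: tagaggctaatcgactgcctaccacaagca
On the mouse build mm9, as the array design gives it, the Gdf9 probe lies at chr11:53251307-53251366 on the plus strand and the Gdf2 probe at chr14:34760077-34760136 on the plus strand. The Inhbe and Inhbc probes lie on the minus strand at chr10:126786719-126786778 and chr10:126793865-126793924, with their starts 7.15 kb apart. Whether a probe lies in a coding or untranslated part of its transcript was not determined here. The motif AATAAA was found on the strand given in 4 of the 10 member probes, those of Inhbb, Inhbe, Bmp2 and Fst, and in 10.1% of all 55681 probes. Its reverse complement was in 2 member probes and in 3.74% of all probes. The G and C content of the member probes ranged from 35% to 55%, around a median of 43.3% for the whole array.

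Gdf9 gave a background-subtracted signal of 155, 255 and 144 intensity units in DMSO mice 1 to 3 and of 34.5, 34.7 and 50.7 units in CBZ mice 1 to 3. Every CBZ mouse was below every DMSO mouse, and DMSO mouse 2 was the brightest of its group. The software marked the spot as well above background in 3 of 3 DMSO mice and in 0 of 3 CBZ mice. Its own error estimate was 17.5, 26.9 and 17.8 units in the DMSO mice and 12.5, 8.15 and 11.5 units in the CBZ mice. That estimate is for 1 spot on 1 array and does not measure the spread between mice.

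On the scaled log2 axis Gdf9 was at 0.03 ± 0.45 (SD, n = 3) in DMSO and at -2.17 ± 0.25 (SD, n = 3) in CBZ. The measured difference was -2.20 ± 0.23 (moderated SE from limma, 95% interval -2.73 to -1.66), or 4.59-fold lower. Since the software marked the probe as well above background on no CBZ array, the fold is given as a bound. Each CBZ array was set at the higher of its own value and the dimmest signal there still marked as well above background. The CBZ mean was then -1.97 in place of -2.17, or a 3.98-fold fall between the group means. That dimmest signal was 53.1, 33.3 and 45.3 units on CBZ arrays 1 to 3. The Gdf9 spot was dimmer than that on CBZ array 1 and slightly brighter on CBZ arrays 2 and 3, where its own value was kept. The bound thus changes CBZ array 1 alone and does not cover the spread between mice. The 95% interval above reaches -1.66, and the measured difference was -1.94 without DMSO mouse 2.

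The size of the Gdf9 difference moved with the treatment of background. The raw mean signal over the local background around the spot was 14.1, 20.3 and 13.5 in DMSO mice and 9.93, 7.13 and 9.45 in CBZ mice. The groups stayed apart on this ratio too, while the CBZ spots were still several times brighter than the glass around them. A ratio of that size does not by itself show a detected transcript. Bmp6, which was too dim to be kept, was at 8.13 to 8.66 in DMSO mice and at 7.25 to 9.29 in CBZ mice. The software had subtracted 78.4, 84.3 and 94.6 units in DMSO mice and 104, 71.4 and 99.9 units in CBZ mice, far more than the local background of 14 to 18 units. The log2 difference was -0.84 ± 0.20 on the ratio and -1.06 ± 0.14 with normexp. That method takes off the local background, models the signal in what remains, and here added an offset of 50 units to every spot. An added offset makes the fold of a dim spot smaller. So does background signal left in both groups, and the ratio divides by the local background without subtracting any. The share of either in these values was not tested. The falls on the ratio and with normexp are both smaller than the bound, which therefore holds only for the software's own background.

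**Figure D1:**
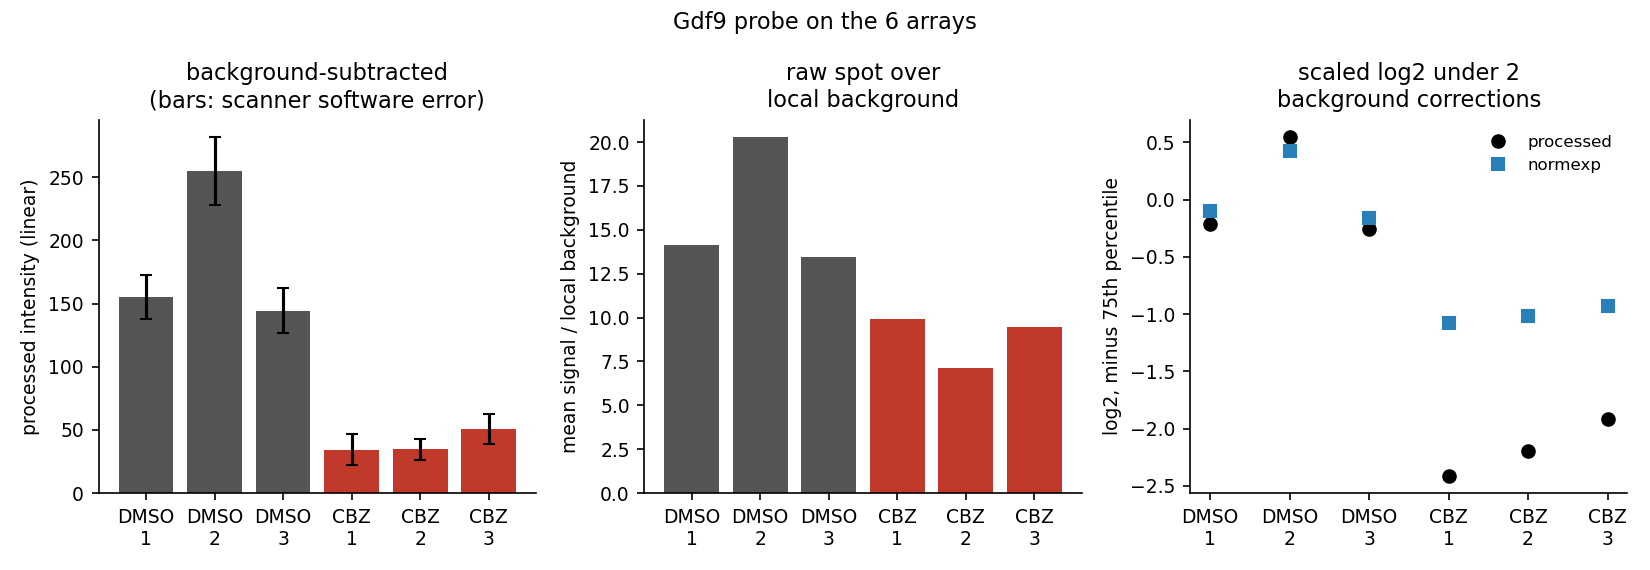
The Gdf9 probe on each of the 6 arrays, as background-subtracted intensity with the scanner software's error estimate (left), as raw mean signal over local background (middle) and as scaled log2 under the software's correction and under normexp (right). The 3 CBZ arrays sit below the 3 DMSO arrays in each panel, by 2.20 log2 units after the software's correction and by 1.06 after normexp.

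Of the 10 member probes, 9 were kept and 8 were well above background on all 6 arrays. By a Benjamini-Hochberg adjusted p of 0.05 in limma the count of members was 1, Gdf9, which the filter kept through the DMSO group alone. By that rule 0.00895% of all probes kept were lower in CBZ and 0.0537% were higher, and no member was among the higher ones. The count of 1 fell to 0 under 7 other processing settings, and also without DMSO mouse 1, DMSO mouse 3, CBZ mouse 2 or CBZ mouse 3. Before adjustment 9.38% of all probes had a p under 0.05. Over the alternatives the adjusted calls among all probes ran from 0 to 83 higher and from 0 to 91 lower. The 3 CBZ values lay wholly below the 3 DMSO values for 2 members, Gdf9 and Inhbe, where 7% of all probes did so. They lay wholly above for 1 member, Gdf2, where 6.25% of all probes did so. For the other 6 the groups overlapped on scaled log2, though those of Bmp2 and Fst did not on the ratio to local background. Because the contrast chose the members, nothing is read from these counts. The CBZ mean was higher for 6 of the 9 members kept and lower for 3, and the median difference was 0.18 on the log2 scale, or 0.25 without Gdf9, against -0.01 over all probes kept.

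**Figure D2:**
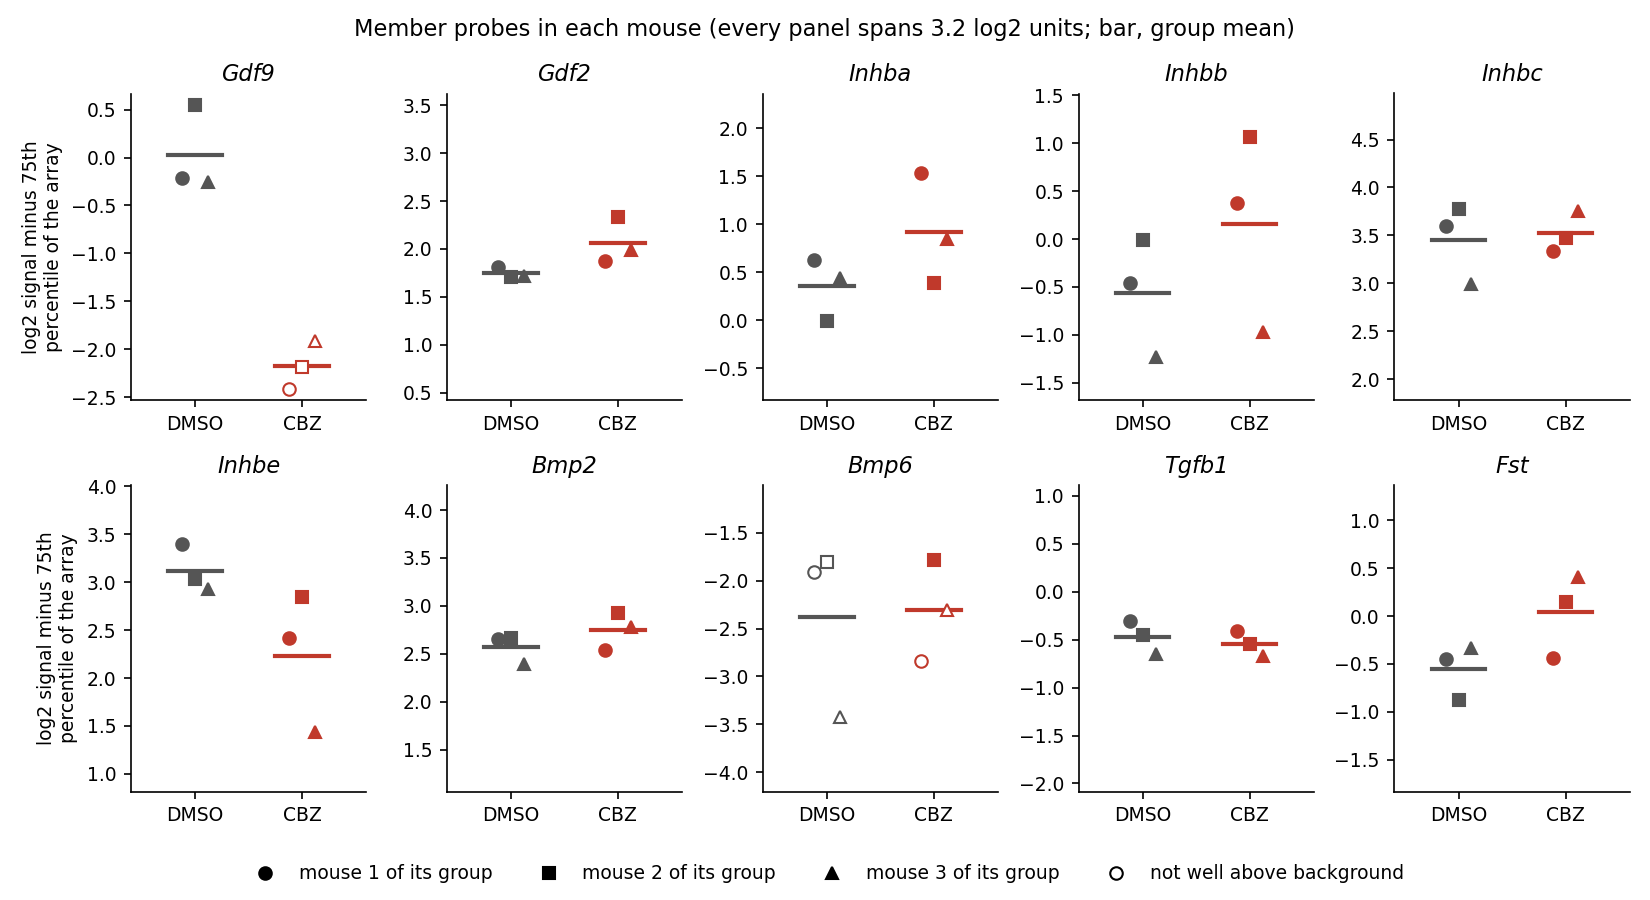
Scaled log2 signal of each member probe in each mouse, with the group mean as a bar and open symbols where a spot was not well above background. Every panel spans the same number of log2 units, and the groups are apart for Gdf9, Gdf2 and Inhbe.

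Among the other ligands, Inhbe was the member with the next largest fall. Inhbe encodes the beta E subunit of activin, a protein made mainly by hepatocytes. Its signal was 1892, 1422 and 1320 units in DMSO mice 1 to 3 and 984, 1135 and 516 units in CBZ mice 1 to 3. All CBZ mice lay below all DMSO mice, with CBZ mouse 3 the lowest and CBZ mouse 2 closest to the DMSO range. The log2 difference was -0.89 ± 0.32 (SE, 95% interval -1.62 to -0.16), or 1.85-fold lower. Without CBZ mouse 3 it was -0.49, the smallest of the 6 values that leave out 1 mouse.

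Inhbc, the gene next to the Inhbe probe and likewise a hepatocyte activin subunit, did not separate the groups. The Inhbc signal was 2172, 2376 and 1371 units in DMSO mice and 1862, 1758 and 2583 units in CBZ mice. The groups overlapped, and CBZ mouse 3, the lowest for Inhbe, was the highest for Inhbc. The difference was 0.07 ± 0.22 (SE, 95% interval -0.42 to 0.56). The difference between the 2 genes' responses was not tested.

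Inhba encodes the subunit that forms activin A, an inhibitor of hepatocyte growth. Its signal was 278, 173 and 234 units in DMSO mice and 533, 207 and 344 units in CBZ mice. CBZ mouse 1 stood highest, while CBZ mouse 2 lay inside the DMSO range. The difference was 0.57 ± 0.28 (SE, 95% interval -0.08 to 1.22), and 0.27 without CBZ mouse 1.

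Inhbb, the subunit of activin B, had the widest spread between mice among the members kept. Its signal was 131, 172 and 73.6 units in DMSO mice and 238, 332 and 97.4 units in CBZ mice. In CBZ mice 1 and 2 it was above every DMSO mouse, and in CBZ mouse 3 it was below 2 of them. The difference was 0.72 ± 0.49 (SE, 95% interval -0.39 to 1.83), and it ran from 0.27 without CBZ mouse 2 to 1.29 without CBZ mouse 3, with 0.39 without DMSO mouse 3.

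Gdf2 encodes BMP9, a circulating ligand of the endothelial receptor Acvrl1 that is made in the liver. Its signal was 633, 568 and 569 units in DMSO mice and 672, 799 and 757 units in CBZ mice. All CBZ mice lay above all DMSO mice, although CBZ mouse 1 was only a little above DMSO mouse 1. Scaled log2 was 1.75 ± 0.06 (SD, n = 3) in DMSO and 2.06 ± 0.24 (SD, n = 3) in CBZ. The difference was 0.32 ± 0.15 (SE, 95% interval -0.03 to 0.66), or 1.25-fold higher. It was 0.18 without CBZ mouse 2, and 0.30 to 0.41 without any other mouse. With the row on the slide as a covariate, which leaves CBZ mouse 1 alone to stand against the DMSO mice, it was 0.12.

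Bmp2, a ligand that endothelial cells supply for hepcidin expression, gave 1134, 1100 and 911 units in DMSO mice and 1071, 1201 and 1317 units in CBZ mice. The groups overlapped, with CBZ mice 2 and 3 highest. The difference was 0.18 ± 0.15 (SE), with 0.09 without either DMSO mouse 3 or CBZ mouse 2 and 0.28 without CBZ mouse 1. Its value was 0.85 on the ratio to local background, on which all CBZ mice lay above all DMSO mice. DMSO mouse 2 had a local background of 50 units around this spot and the other mice had 14 to 17.

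Bmp6, the main inducer of hepcidin by iron, was too dim to be kept. Its signal was 47.8, 49.9 and 16.1 units in DMSO mice and 25.7, 46.0 and 38.7 units in CBZ mice, and only the spot of CBZ mouse 2 was well above background. The groups overlapped, and no difference is given for a probe that was not well above background throughout either group.

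Tgfb1, the most studied ligand of the family, was spotted 10 times with 1 probe, of which 8 to 10 spots were used on each array after outlier spots had been left out. Its signal was 146, 127 and 111 units in DMSO mice and 139, 108 and 121 units in CBZ mice. The groups overlapped, and the difference was -0.07 ± 0.14 (SE, 95% interval -0.40 to 0.25). The SD between single spots of an array was 0.09 to 0.17 on the log2 scale. The SD between mice, each taken as the mean of its spots, was 0.18 in DMSO and 0.13 in CBZ, and these SDs are of different quantities.

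Fst encodes follistatin, the secreted inhibitor that binds activins. Its signal was 132, 94.8 and 137 units in DMSO mice and 136, 175 and 254 units in CBZ mice. CBZ mice 2 and 3 were above every DMSO mouse, and CBZ mouse 1 lay within the DMSO range. The difference was 0.59 ± 0.23 (SE, 95% interval 0.06 to 1.13). With the slide row as a covariate it was 0.12, and without any 1 mouse it was 0.41 to 0.83.

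**Figure D3:**
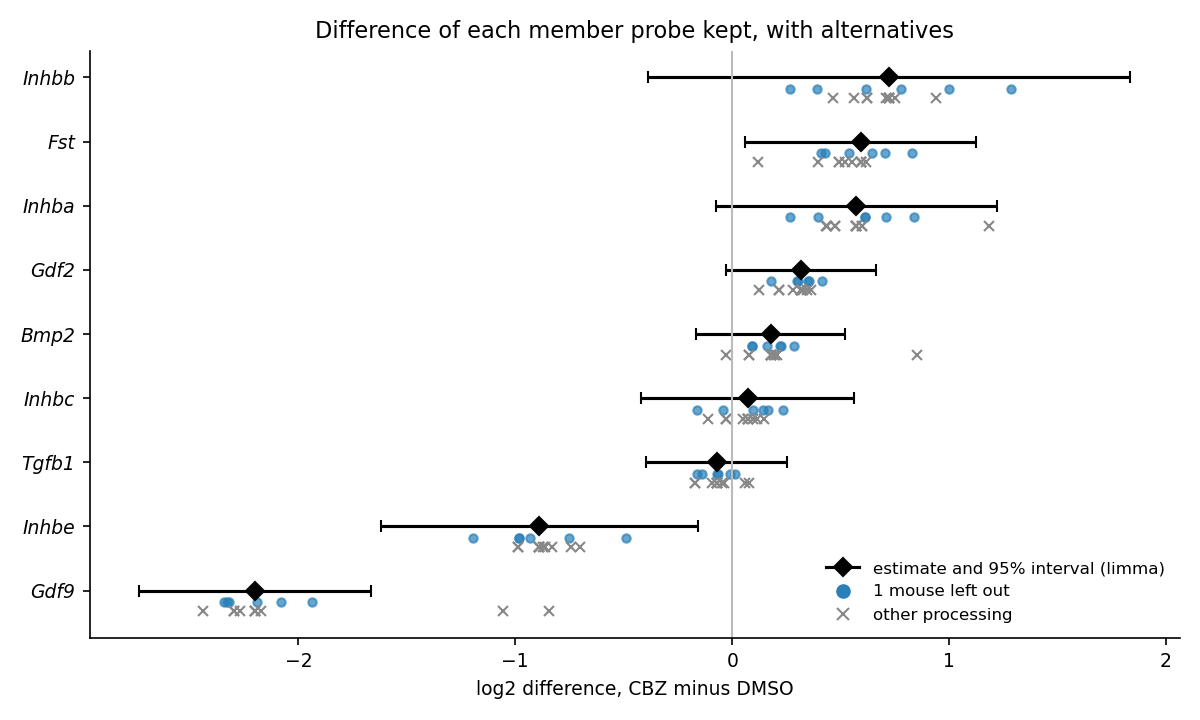
Log2 difference of CBZ minus DMSO for the 9 member probes kept, with the 95% interval from limma (diamonds), the 6 values that leave out 1 mouse (circles) and the values under other processing (crosses). Gdf9 lies at -2.20 and Inhbe at -0.89, and the intervals of 6 members include 0.

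Probes near Gdf9 in the genome were then set beside it. Of the other probes within 50 kb, 7 were kept. Uqcrq, a subunit of mitochondrial complex III whose gene neighbours Gdf9 in the RefSeq table, has probes 8.76 and 8.86 kb away. Their differences were 0.10 ± 0.16 and -0.14 ± 0.15, and the groups overlapped on both. Among genes named after their values were seen, Leap2, which encodes a liver peptide that blocks the ghrelin receptor, lay 15.5 kb away and was at 0.46 ± 0.17. Shroom1, which encodes an actin-binding protein, lay 29.9 kb away and was at 0.47 ± 0.14. In both the 3 CBZ values were above the 3 DMSO values, with a Benjamini-Hochberg adjusted p of 0.42 and 0.32 in limma. None of the 7 was past the adjusted threshold in limma, and 2 of them, Leap2 and Shroom1, had an unadjusted p under 0.05. Of all probes kept, 9.38% had such a p and 6.25% had CBZ values wholly above the DMSO values. Nothing is read from these 2 genes.

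**Figure D4:**
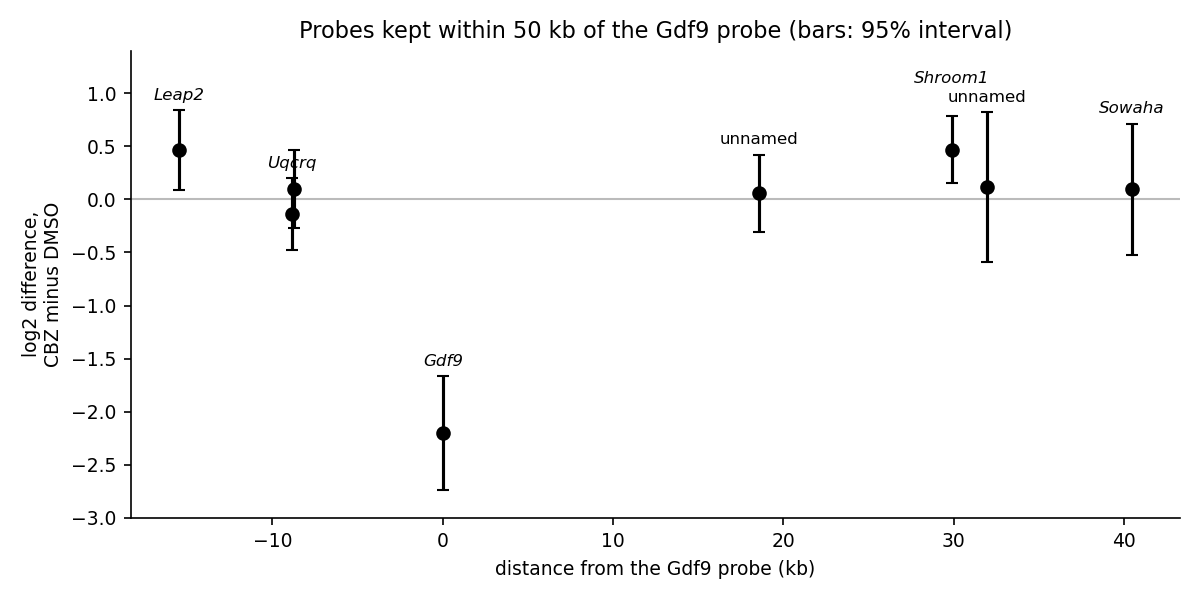
Log2 difference of CBZ minus DMSO, with its 95% interval, against the distance from the Gdf9 probe for probes kept within 50 kb. Gdf9 is at -2.20, and the 7 others lie between -0.14 and 0.47.

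The 5 named probes whose scaled log2 values ran most like those of Gdf9 over the 6 arrays were those of Phf20l1, Pbx3, Slc38a7, Camk2n1 and Pnrc1. Pearson's r with Gdf9 was 0.994, 0.994, 0.993, 0.992 and 0.988 in that order, over 6 arrays, and it describes arrays that differ by group as well as by mouse. That they were lower in CBZ follows from the choice by likeness, so their differences are given only for their size. Phf20l1, a chromatin reader, was at -0.55 ± 0.12, and Pbx3, a homeodomain transcription factor, was at -0.53 ± 0.13. Pnrc1, a nuclear receptor coregulator, was at -0.46 ± 0.13. Camk2n1, an inhibitor of the kinase CaMKII, was at -0.37 ± 0.12, and Slc38a7, a glutamine transporter, was at -0.22 ± 0.12.

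The cells of whole liver were followed through marker lists, because in bulk tissue fewer cells of a type and less RNA per cell cannot be told apart. Of the 14 oocyte markers on the array, with 15 probes, none was kept. Zp1, Zp2 and Zp3 of the egg coat, and Bmp15, the oocyte partner of Gdf9, were well above background on 0 of 6 arrays, and 1 probe of the list, that of Oosp1, was so on 1 array. Defining oocyte markers were thus near background in both groups, including the DMSO mice that gave a Gdf9 signal.

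Of hepatic stellate markers 9 of 10 were kept, led by Ecm1 and Dcn, with a median difference of 0.22. Their summed signal, in multiples of the array's 75th percentile, was 219 to 251 in DMSO and 203 to 324 in CBZ. All 10 sinusoidal endothelial markers, led by Clec4g and Stab2, were kept, with a median of 0.02 and sums of 82.5 to 129 and 92.6 to 109. All 10 Kupffer cell markers, led by Csf1r and Cd5l, were kept, with a median of 0.12 and sums of 143 to 317 and 187 to 229. For the 8 hepatocyte markers the median was -0.01 and the sums were 4669 to 5049 and 4665 to 5357. Of 6 cholangiocyte markers 3 were kept, led by Spp1 and Krt19, with a median of 0.31 and sums of 2.17 to 3.32 and 2.99 to 4.08. In all of these lists the groups overlapped, and no gene was past the adjusted threshold in limma. At an unadjusted p under 0.05 in limma there were 2 genes, where 9.38% of all probes had such a p. They were the stellate marker Hgf at 0.56 ± 0.21 and the cholangiocyte marker Krt7 at -0.52 ± 0.22, named after their values were seen. Krt7 was well above background in 3 of 3 DMSO mice and in 0 of 3 CBZ mice, so the filter kept it through DMSO alone. The part of cell makeup in the members' values was not tested.

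The rest of the pathway was read from 9 lists of 115 genes, of which 114 were on the array and 75 were kept. None was past an adjusted p of 0.05 in limma, adjusted by Benjamini-Hochberg across the 22352 probes. At an unadjusted p under 0.05 there were 9, or 12% against 9.38% of all probes, 5 of them higher in CBZ and 4 lower. The CBZ mean was higher for 35 genes and lower for 40, with a median of -0.03. Other processing gave 0 to 2 genes past the threshold, and those that passed were Gdf15, Id2 and Hamp. The calls among all probes moved as well, over the ranges given above.

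Of the 24 other ligands 8 were kept, 5 with a higher CBZ mean and 3 with a lower one (median 0.18). The widest difference was that of Gdf15, a stress-induced distant member of the family that acts through a receptor in the brain stem. It was at 2.37, 2.39 and 2.20 scaled log2 in DMSO mice and at 4.04, 4.85 and 5.88 in CBZ mice. All CBZ mice were well above all DMSO mice, yet with a wide spread in CBZ, and the difference of 2.61 ± 0.38 had a Benjamini-Hochberg adjusted p of 0.065 in limma. Tgfb3, the third TGF-beta isoform, was at 0.51 ± 0.17 with the CBZ mice all above the DMSO mice (limma adjusted p = 0.36).

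Of 11 extracellular inhibitors and latency proteins kept, 8 had a higher CBZ mean and 3 a lower one (median 0.06). Fstl1, a follistatin-like protein, was at 0.25 ± 0.15. For the 7 genes of ligand processing and activation that were kept, all CBZ means were lower, by little (median -0.09). Bmp1, a protease that frees ligands from their inhibitors, was at -0.28 ± 0.16, and Itgav, the integrin chain that activates latent TGF-beta, was at -0.27 ± 0.16.

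Receptor differences were small, with every one of both classes between -0.35 and 0.28. Of 5 type I receptors kept, 3 had a higher CBZ mean and 2 a lower one (median 0.18). Acvrl1, the endothelial receptor of Gdf2, was at 0.26 ± 0.14, and Acvr1b, the activin type I receptor, was at 0.19 ± 0.12. Of 5 type II receptors, 1 had a higher mean, Tgfbr2 at 0.28 ± 0.16, and 4 a lower one (median -0.15). Acvr2b, an activin receptor, was at 2.82, 2.75 and 2.92 scaled log2 in DMSO mice and at 2.46, 2.59 and 2.36 in CBZ mice. Its groups did not overlap, and the difference of -0.35 ± 0.13 had an adjusted p of 0.42 in limma. Bmpr2, the BMP type II receptor, was at -0.24 ± 0.17, with overlapping groups. Of 6 co-receptors, 4 had a higher mean and 2 a lower one (median 0.05). Hjv, the hepatocyte co-receptor needed for hepcidin, was at 0.20 ± 0.18, and Neo1, which binds Hjv, was at -0.23 ± 0.15.

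Of 14 Smads and Smad regulators kept, 10 had a lower CBZ mean and 4 a higher one (median -0.18). Smad3, the receptor Smad of TGF-beta and activin, was at 1.49, 1.53 and 1.59 scaled log2 in DMSO mice and at 0.99, 1.28 and 1.10 in CBZ mice. All CBZ mice lay below all DMSO mice, and the difference was -0.41 ± 0.13 (limma adjusted p = 0.36). A dimmer second Smad3 probe was well above background on 0 arrays. Skil, a Smad-binding repressor that TGF-beta signalling removes and then induces, was at 0.43 ± 0.15 (limma adjusted p = 0.40). Zfyve9, which anchors Smads at the receptor and is named because it was among the 9 above, was at -0.29 ± 0.13 (limma adjusted p = 0.52). Smad7, the feedback inhibitor, was well above background on 0 arrays, so its response could not be read.

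Of 8 BMP response genes kept, 5 had a lower CBZ mean and 3 a higher one (median -0.16). Id2, a target of BMP Smads that blocks basic helix-loop-helix factors, was at 4.02, 4.10 and 3.72 scaled log2 in DMSO mice and at 2.87, 3.53 and 2.81 in CBZ mice. Its CBZ mice were all lower, by -0.87 ± 0.21 (limma adjusted p = 0.22). The related target Id1 was at -0.21 ± 0.46, with wide and overlapping groups. Msx2, a homeobox target of BMPs, was at 0.52 ± 0.21 (limma adjusted p = 0.47).

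Hamp, which encodes the iron hormone hepcidin, was at 7.22, 7.63 and 6.69 scaled log2 in DMSO mice and at 3.22, 7.78 and 6.78 in CBZ mice. CBZ mouse 1 stood far below the rest, while the other CBZ mice lay within or above the DMSO range. Its difference of -1.25 ± 0.97 rests on that mouse, since it was 0.10 ± 0.34 without CBZ mouse 1. Of 14 TGF-beta and activin response genes kept, 9 had a higher CBZ mean and 5 a lower one (median 0.17). Ccn2, a matrix-associated TGF-beta target, was at 0.46 ± 0.25 with overlapping groups.

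**Figure D5:**
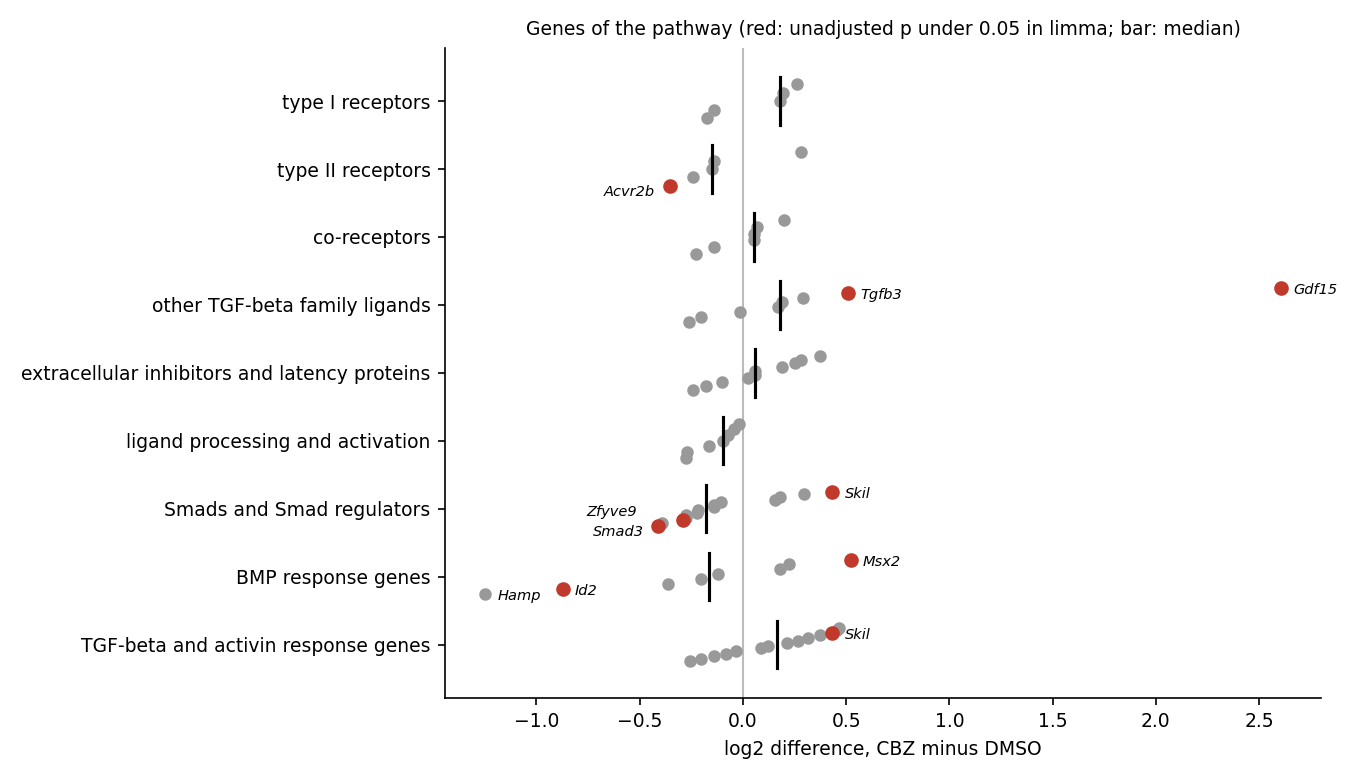
Log2 difference of CBZ minus DMSO for the pathway genes kept and reported, by list, with the median of all genes kept in the list as a bar. Red points have an unadjusted p under 0.05 in limma, none is past the adjusted threshold, and Gdf15 stands apart at 2.61.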

How the data were processed

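Whole-liver RNA of 6 mice was measured on 1-colour Agilent arrays. Per the file headers, the authors' scans were read with Agilent Feature Extraction 10.7.3.1, and each deposited intensity is linear, the processed one already background-subtracted. The authors' deposited table holds a ratio of processed intensity to the array's median. Control and outlier spots were left out, log2 values were scaled by the 75th percentile and spots of a probe were averaged. Differences came from limma 3.58.1 (R 4.3.3, moderated, two-sided) over 22352 probes with Benjamini-Hochberg adjustment at 0.05, and the fit was tested on simulated data. A gene outside the members was read from its probe with the highest mean signal, named through a RefSeq table of GRCm38.p6. Members, lists and alternatives were chosen with earlier results of these data known. Named were every member, the 2 pathway genes per list with the smallest p, 8 preset genes, the 5 probes most like Gdf9, and the 2 brightest markers per cell type. Of the genes that this rule takes, 2 are not reported here. Any further gene is marked in the text as named after its values were seen, apart from the oocyte markers Zp1, Zp2, Zp3 and Oosp1, which are also outside the rule.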

Additional observations from a re-analysis of the deposited data

How the results depend on the processing

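Gdf9 kept its sign in 16 of 16 alternatives, between -2.44 and -0.84, with -1.06 under normexp and -0.84 on the ratio to local background. Leaving out 1 mouse gave -2.34 to -1.94, and the filter on all 6 arrays left Gdf9 out. Its groups did not overlap, so its sign could not change without 1 mouse or with the slide row. A change of filter, the intensity trend and the replicate block leave the estimate as it was by construction. The authors' deposited table repeats median scaling. The alternatives are thus not that many separate checks. The member count past the threshold, 1, became 0 on the ratio to local background, under quantile normalization and under the 75th percentile of detected spots. It was also 0 with no filter, with the filter on all arrays and with the slide row. It was 0 to 1 when 1 mouse was left out, with 0 without DMSO mouse 1, DMSO mouse 3, CBZ mouse 2 or CBZ mouse 3. The cause was not tested, except that the filter removes the probe. Over all probes the calls moved too, from 12 higher and 2 lower. They were 25 and 3 on the ratio, and 5 and 2 under quantile normalization. They were 6 and 0 under the 75th percentile of detected spots, 0 and 0 with no filter, and 31 and 12 with the filter on all arrays. Without DMSO mouse 3 or CBZ mouse 2 they were 0 and 0. They were 3 and 1 without DMSO mouse 1, and 1 and 0 without CBZ mouse 3. The pathway count of 0 became 2 under normexp (Gdf15 and Id2) and 2 under median scaling (Gdf15 and Hamp). The authors' deposited table, being the same scaling, gave the same 2. It was 1 on the ratio and 1 with the filter on all arrays (Gdf15), 1 with the slide row (Hamp), and 0 to 1 when 1 mouse was left out, with Gdf15 past it without CBZ mouse 1. Median scaling moved the median of all probes to -0.11, and the fit then used a variance common to all probes. It called 60 of all probes higher and 71 lower, and normexp called 76 and 54, where the reported fit called 12 and 2. With the slide row as a covariate Gdf2 was at 0.12, Inhba at 1.18, Bmp2 at -0.03 and Fst at 0.12. Gdf2, Inhba, Inhbb, Inhbe and Fst kept their sign in 17 of 17 alternatives, Bmp2 in 16, Tgfb1 in 14 and Inhbc in 12. The repeats among the alternatives hold for every member, and the fixed sign holds for Gdf2 and Inhbe as for Gdf9.

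Mice of the same number in both groups share only the number, with correlations of their deviations from the group means of -0.24, 0.02 and 0.18. With the replicate block Gdf9 was at -2.20, 0 members and 0 pathway genes were past the threshold, and the calls over all probes went from 12 higher and 2 lower to 9 and 1.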

Other observations

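Genes that BMP signalling is known to induce were set side by side after their values were seen. Their order over the mice was shared only in part. In the DMSO group Id1, Id2, Id3, Hamp and Atoh8 all ran from mouse 2 down through mouse 1 to mouse 3. Hamp2, Smad9 and Msx2, described below, did not. In the CBZ group mouse 2 was the highest for Id1, Id2, Id3, Hamp and Hamp2, and not for Smad9, Atoh8 or Msx2. Id1 was at -0.18, 0.33 and -0.93 scaled log2 in DMSO mice 1 to 3 and at -0.72, 0.56 and -1.25 in CBZ mice 1 to 3. Id3, a close relative of Id1, was at 4.18, 4.23 and 3.31 in DMSO mice and at 2.82, 4.19 and 3.60 in CBZ mice. In both genes mouse 2 was the highest of its group and DMSO mouse 3 the lowest of its group.

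Hamp was lowest in CBZ mouse 1, at 3.22. Its close paralog Hamp2, whose probe could share transcripts with that of Hamp, was at 7.37, 7.05 and 6.19 in DMSO mice and at 7.16, 7.46 and 6.66 in CBZ mice, so it was not low in CBZ mouse 1. Smad9, a BMP Smad, was at -1.23, -1.24 and -1.66 in DMSO mice and at -1.01, -1.15 and -1.43 in CBZ mice, with CBZ mouse 1 the highest of all. Atoh8, a helix-loop-helix factor, was at 1.06, 1.17 and 0.76 in DMSO mice and at 0.44, 1.07 and 1.11 in CBZ mice, with CBZ mouse 1 the lowest. Msx2 was at -1.11, -0.55 and -0.43 in DMSO mice and at -0.41, -0.19 and 0.07 in CBZ mice, with mouse 3 the highest of both groups. No relation between these genes was tested.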
